A study of Mus musculus with 16 samples.

Results

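The genes described are 7 chemokine genes that intestinal epithelium is known to be able to express: Ccl20, Ccl25, Ccl28, Cxcl1, Cxcl2, Cxcl16 and Cx3cl1. They were taken by name from a table of 49585 genes measured by RNA sequencing. The filter on low counts left 12559 genes for testing, and 5 of the 7 chemokine genes were among them. Cxcl1 and Cxcl2 were too low to compare in the main test and are given by their read counts. A fit with no filter on low counts is given beside these counts as an alternative.

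Small intestinal organoids are cultures grown from isolated crypts in a gel, made of epithelial cells. RNA was sequenced from 16 cultures in 4 groups of 4. Atg16l1 fl/fl organoids carry the floxed autophagy gene Atg16l1 without Cre recombinase, and Atg16l1 ΔIEC organoids carry the same floxed alleles with Cre driven by the villin promoter, which is active in epithelial cells of the intestine. Cultures of each genotype were left untreated or received recombinant murine IL-22 at 10 ng/ml for 24 h. The labels number 2 organoid lines per genotype, 1293 and 1294 for fl/fl and 1290 and 1292 for ΔIEC. Each line gave 2 untreated and 2 treated cultures, so n = 4 counts cultures of 2 lines, and a difference between genotypes is also a difference between lines. The p-values measure the spread between these cultures, and whether each line came from 1 mouse is not given in the sources used here.

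Chemokines are small secreted or membrane-anchored proteins that bind receptors on leukocytes and direct their migration. CCL25 attracts lymphocytes with the receptor CCR9 to the small intestine, CCL28 attracts antibody-secreting cells with CCR10, and CCL20 attracts dendritic cells and lymphocytes with CCR6. CXCL1 and CXCL2 attract neutrophils through CXCR2, and their genes are classical targets of the transcription factor NF-κB. CXCL16 and CX3CL1, also called fractalkine, are made as membrane-bound proteins that ADAM proteases can shed, and they bind CXCR6 and CX3CR1. IL-22 acts on epithelial cells through a receptor that activates the transcription factor STAT3.

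Promoter windows were examined because the chemokine genes fell into groups with different responses. RefSeq windows of 300 bases on GRCm38.p6, from 250 bases before to 50 bases after a start of transcription, were found for 6 of the 7 genes, with 2 windows for Ccl25. None was found for Cxcl16. The windows of Cxcl1 and Cxcl2, at chr5:90890995-90891294 and chr5:90903649-90903948 on the plus strand, are shown because they hold the same NF-κB consensus match and belong to the genes with the fewest reads. Their start positions lie 12654 bases apart. The window of Ccl20, at chr1:83116516-83116815 on the plus strand, is the other window with a match. The window of Cx3cl1, at chr8:94771930-94772229 on the plus strand, is shown because this gene differed both with IL-22 and between genotypes and its window holds no match. Capitals mark matches to the κB consensus on either strand.
Cxcl1: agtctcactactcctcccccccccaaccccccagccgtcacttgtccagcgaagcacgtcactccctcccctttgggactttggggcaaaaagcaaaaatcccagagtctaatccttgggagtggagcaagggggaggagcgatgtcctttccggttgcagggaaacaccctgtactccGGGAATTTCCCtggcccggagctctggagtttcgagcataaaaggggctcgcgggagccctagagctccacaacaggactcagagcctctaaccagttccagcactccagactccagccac
Cxcl2: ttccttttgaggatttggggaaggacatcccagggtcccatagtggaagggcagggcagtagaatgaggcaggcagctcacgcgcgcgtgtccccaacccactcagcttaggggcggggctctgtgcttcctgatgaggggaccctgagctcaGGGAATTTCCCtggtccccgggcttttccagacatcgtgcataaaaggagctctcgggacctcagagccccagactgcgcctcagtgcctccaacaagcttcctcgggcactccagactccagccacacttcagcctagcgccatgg
Ccl20: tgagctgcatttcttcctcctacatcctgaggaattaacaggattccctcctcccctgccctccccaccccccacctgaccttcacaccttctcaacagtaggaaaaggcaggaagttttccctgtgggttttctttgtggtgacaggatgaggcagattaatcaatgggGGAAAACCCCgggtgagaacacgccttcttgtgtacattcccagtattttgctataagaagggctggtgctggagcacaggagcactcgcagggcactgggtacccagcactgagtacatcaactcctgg
Cx3cl1: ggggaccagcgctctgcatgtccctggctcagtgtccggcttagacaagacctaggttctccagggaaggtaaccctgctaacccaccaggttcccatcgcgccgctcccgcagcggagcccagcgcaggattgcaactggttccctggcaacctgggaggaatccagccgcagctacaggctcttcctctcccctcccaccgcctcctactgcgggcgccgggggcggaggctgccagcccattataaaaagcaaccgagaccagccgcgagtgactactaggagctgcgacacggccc

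In Cxcl1 the capitals cover 2 overlapping matches, which begin 71 and 70 bases before the start site. In Cxcl2 they cover 2 overlapping matches beginning 97 and 96 bases before it, and the match in Ccl20 begins 80 bases before it. Outside the capitals, the Cxcl1 and Cxcl2 windows share a run of 20 bases near their ends. Both Ccl25 windows and the Ccl28 window hold no match. The STAT palindrome, TTCNNNGAA with N for any base, matched none of the windows of these 6 genes. Of 32817 promoter windows of this length, 8.46% held a κB match and 8.29% held the STAT palindrome. A match describes the letters and not binding, and the lack of one says only that these letters are not in the window.

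The reads counted on genes ranged from 2135000 to 5574860 per culture, which was 36.3% to 38.3% of the reads in the table. Atg16l1 itself averaged 40.1 and 44.8 CPM (counts scaled to 1000000 per library, with TMM factors) in fl/fl organoids without and with IL-22, against 2.65 and 1.83 CPM in ΔIEC organoids. The epithelial markers, which include Epcam and Vil1, summed to 6850 to 13400 CPM over all cultures. The 12 immune markers summed to 11.6 to 20 CPM. Among them Ptprc, the pan-leukocyte marker, had at most 1 read in any culture and Cd3e had 0, whereas Csf1r had 20 to 58. The stromal and endothelial markers summed to at most 4.06 CPM.

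The level of each chemokine transcript was first set per length, as CPM per kilobase of the principal transcript. Ccl25 was the highest in untreated fl/fl organoids, at 318 ± 36.6 CPM per kilobase (SD, n = 4). Cxcl16 followed at 16.9 ± 5.08, Ccl28 at 14.2 ± 1.26 and Cx3cl1 at 14 ± 1.93, and the cultures of these 3 genes overlapped. Ccl20 averaged 8.48 ± 3.51, with its highest culture at 11.7 above the lowest of Cxcl16 at 11.4, followed by Cxcl1 at 0.216 ± 0.27 and Cxcl2 with no reads. Ccl25 thus made up 85.6% of the summed level of the 7 genes in fl/fl organoids without IL-22 and 72.5% with it. In ΔIEC organoids the shares were 81.6% and 69.9%. These shares depend on the length used: with that of all annotated exons they were 51.6% and 31.1% in fl/fl and 45.4% and 29.8% in ΔIEC organoids. The principal transcript of Ccl25 is 1058 bases, and all its annotated exons together are 7445. With the length of all exons Ccl25 was first in both untreated groups, at 45.1 and 35.1 CPM per kilobase. With IL-22 it then stood at 25.8 in fl/fl and 23.3 in ΔIEC organoids, below Cxcl16 at 27.7 and 29.6. Fold changes of a single gene do not depend on length.

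**Figure D1:**
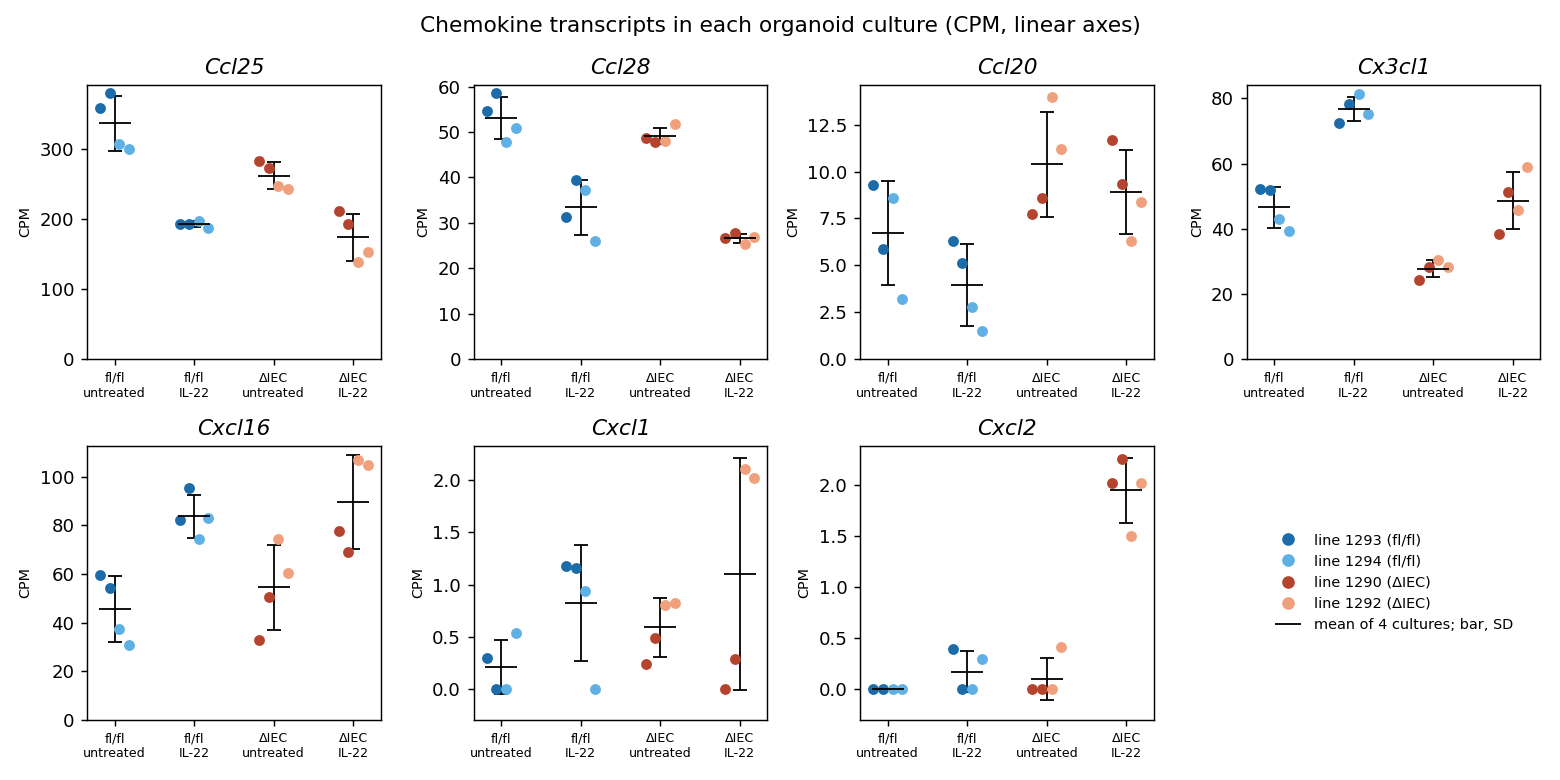
Each point is 1 organoid culture, the vertical axes give CPM on linear scales, colors mark the 4 organoid lines, and bars show the mean and SD of 4 cultures. Ccl25 and Ccl28 sit lower and Cx3cl1 and Cxcl16 higher with IL-22, Cx3cl1 sits lower in ΔIEC than in fl/fl organoids, and Cxcl1 and Cxcl2 stay below 2.5 CPM.

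The first comparison asked how IL-22 changes the chemokine genes in organoids with Atg16l1. In fl/fl organoids Ccl25 and Ccl28 fell and Cxcl16 and Cx3cl1 rose, each by less than 2-fold, while Ccl20 did not pass the threshold, an adjusted p under 0.01 in edgeR's quasi-likelihood test. Higher calls thus numbered 2 and lower calls 2 of 5 tested, against 10.6% of all tested genes called higher and 10.2% called lower. In ΔIEC organoids 1 of the 5 was called higher, Cx3cl1, and 2 were called lower, again Ccl25 and Ccl28. The background there was 9.83% higher and 7.65% lower. The median log2 change of the 5 was -0.66 in fl/fl and -0.19 in ΔIEC organoids, beside -0.05 and -0.01 over all tested genes.

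Ccl25 lies on chromosome 8 from 4325210 to 4360020. Its CPM in untreated fl/fl cultures was 358 and 379 in line 1293 and 307 and 300 in line 1294. With IL-22 it was 192 and 193 in line 1293 and 197 and 187 in line 1294. Every treated culture was below every untreated one, and the treated cultures of both lines were close together. The log2 change was -0.81 ± 0.11 (SE, adjusted p = 1.37e-05). In ΔIEC organoids, untreated cultures held 283, 273, 247 and 243 CPM and treated cultures 211, 192, 139 and 153 CPM. These groups did not overlap, and both treated cultures of line 1292 were lower than both of line 1290. The log2 change was -0.60 ± 0.11 (adjusted p = 0.000355). This call was lost without line 1292, at -0.47 (adjusted p = 0.0141). The exons of Ccl25 share 204 bases with Elavl1 on the opposite strand, and Elavl1 moved by -0.05 and 0.05 on the log2 scale (adjusted p = 0.697 and 0.702).

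Ccl28, on chromosome 13 from 119623819 to 119654359, fell from 54.7, 58.7, 47.9 and 50.9 CPM in untreated to 31.2, 39.4, 37.2 and 26 CPM in treated fl/fl cultures. The groups did not overlap, and the log2 change was -0.66 ± 0.11 (adjusted p = 0.000123). The treated cultures spread more widely than the untreated ones, with 1 culture of each line low. In ΔIEC organoids the untreated cultures held 48.6, 47.8, 48.1 and 51.7 CPM and the treated ones 26.6, 27.7, 25.3 and 26.8 CPM. Here the spread within each group was small and the log2 change was -0.88 ± 0.12 (adjusted p = 8.89e-06).

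Across the 16 cultures Ccl25 and Ccl28 varied together, with a Pearson r of log2 CPM of 0.89. The cultures share their lines and fall into 4 groups, so r is a description. By the same measure the tested genes most like Ccl25 were Glrx, Sult1d1 and Cyb5a, at r of 0.976, 0.974 and 0.971. Those most like Ccl28 were Got2, Retsat and Cps1, at 0.969, 0.968 and 0.963. Glrx encodes a glutaredoxin, Sult1d1 a sulfotransferase, Cyb5a cytochrome b5, Got2 and Cps1 mitochondrial enzymes of amino acid and ammonia metabolism, and Retsat retinol saturase.

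Most markers of absorptive enterocytes, such as Sis, Lct and Fabp2, were also called lower with IL-22. Their sum went from a mean of 3980 CPM (range 3770 to 4170) to 1410 CPM (1250 to 1660) in fl/fl organoids, with 8 of 10 markers called lower. In ΔIEC organoids it went from 4010 CPM (3550 to 4260) to 1580 CPM (1200 to 1960), with 6 of 10 called lower. Alpi was called in neither genotype (adjusted p = 0.0404 and 0.0122), and Anpep had a log2 change of 0.47 in ΔIEC organoids (adjusted p = 0.366). The stem cell markers also summed to less with IL-22, at 495 and then 247 CPM in fl/fl and 996 and then 402 CPM in ΔIEC organoids, with 2 and 4 of 5 called lower. The part of these markers in the results was not tested. In bulk samples, fewer cells of a type and less RNA per cell cannot be told apart.

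Cx3cl1, which encodes fractalkine, lies on chromosome 8 from 94772009 to 94782427. It was at 52.1, 51.8, 42.9 and 39.4 CPM in untreated fl/fl cultures and at 72.6, 78.2, 81.3 and 75.2 CPM with IL-22. The treated and untreated cultures did not overlap, and line 1294 was the lower line before treatment. The log2 change was 0.72 ± 0.11 (adjusted p = 7.96e-05). Without line 1294 it was 0.54 and did not pass (adjusted p = 0.0203). In ΔIEC organoids Cx3cl1 went from 24.4, 28.2, 30.4 and 28.1 CPM to 38.3, 51.2, 45.8 and 59.1 CPM, again with no overlap. This was a log2 change of 0.83 ± 0.13 (adjusted p = 5.79e-05). The general epithelial markers also summed to more with IL-22, a mean of 12000 against 8180 CPM in fl/fl (6 of 8 called higher) and 10200 against 7840 CPM in ΔIEC organoids (2 of 8 called higher), and their part in the rises of Cx3cl1 and Cxcl16 was not tested.

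Cxcl16, on chromosome 11 from 70453983 to 70459984 on the minus strand, varied more between lines. In untreated fl/fl organoids it was at 59.7 and 54.4 CPM in line 1293 and at 37.5 and 30.6 CPM in line 1294. With IL-22 it was at 82 and 95.5 CPM and at 74.4 and 83 CPM. The treated and untreated fl/fl cultures did not overlap, and the log2 change was 0.87 ± 0.21 (adjusted p = 0.00397). This call did not hold without untreated fl/fl replicate 3 (adjusted p = 0.0141), untreated fl/fl replicate 4 (0.0179) or IL-22–treated fl/fl replicate 2 (0.0106), nor without line 1294 (0.093).

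In ΔIEC organoids Cxcl16 was at 32.9 and 50.5 CPM in line 1290 and at 74.5 and 60.4 CPM in line 1292 before treatment. After IL-22 it was at 77.5 and 69 CPM and at 107 and 105 CPM. The groups overlapped, with an untreated culture of line 1292 above a treated one of line 1290, but within each line both treated cultures were above both untreated ones. The log2 change of 0.75 ± 0.21 missed the threshold (adjusted p = 0.012). With the line as a replicate block it was 0.73 and passed (adjusted p = 7.79e-06), and it passed in DESeq2 at 0.72 (adjusted p = 0.00621), but not with summed cultures. It also passed when any of 4 cultures was left out: untreated fl/fl replicate 1 (adjusted p = 0.00928) or 4 (0.0066), untreated ΔIEC replicate 3 (0.00377) or IL-22–treated ΔIEC replicate 2 (0.00705).

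The exons of Cxcl16 share 552 bases with Zmynd15 on the opposite strand, and the strand setting of the counting is not given in the sources used here. Zmynd15 went from a mean of 15.6 to 31.6 CPM in fl/fl (log2 change 1.00, adjusted p = 0.00301) and from 19.9 to 28.3 CPM in ΔIEC organoids (0.58, adjusted p = 0.0754). Reads of the 2 genes cannot be told apart where they overlap without strand. Zmynd15 was also among the 3 tested genes most like Cxcl16 over the 16 cultures, at r = 0.958, with Rhoc at 0.968 and Rdh10 at 0.956. Rhoc encodes a small GTPase and Rdh10 a retinol dehydrogenase. The genes most like Cx3cl1 were Slc26a6, an anion exchanger, at 0.969, Sft2d2 at 0.969, and Aldh1l1, an enzyme of folate metabolism, at 0.962. Cxcl16 and Cx3cl1 had an r of 0.56 with each other, and Cxcl16 and Ccl25 one of -0.78.

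Ccl20, on chromosome 1 from 83116766 to 83119167, was carried by few reads, 5 to 35 per culture. In untreated fl/fl cultures it was at 9.31, 5.85, 8.58 and 3.2 CPM and with IL-22 at 6.31, 5.12, 2.8 and 1.49 CPM. These overlapped, and the log2 change of -0.78 ± 0.37 did not pass (adjusted p = 0.118). In ΔIEC cultures it was at 7.75, 8.58, 14 and 11.2 CPM before and 11.7, 9.34, 6.32 and 8.36 CPM after IL-22, a log2 change of -0.19 ± 0.32 (adjusted p = 0.705). The lines of this genotype went opposite ways. Both treated cultures were above the untreated ones in line 1290 (difference of mean log2 CPM 0.34) and below them in line 1292 (-0.74). The tested genes most like Ccl20 were Suds3, Bloc1s2 and Atp6v1c1, at r of 0.882, 0.879 and 0.871, lower values than for the other tested chemokine genes.

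**Figure D2:**
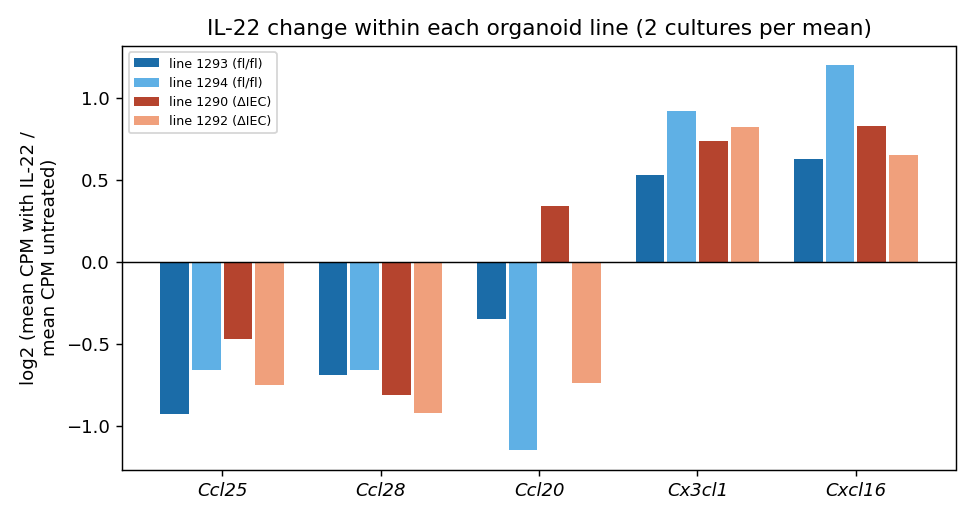
Bars give mean log2 CPM with IL-22 minus mean log2 CPM untreated within each of the 4 organoid lines, 2 cultures per mean. The vertical axis is worded as a ratio of mean CPM. The bars of Ccl25 and Ccl28 are below 0 and those of Cx3cl1 and Cxcl16 above 0 in all 4 lines, while Ccl20 runs from -1.15 in line 1294 to 0.34 in line 1290.

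Within lines, the difference of mean log2 CPM with IL-22 lay between -0.93 and -0.47 for Ccl25 and between -0.92 and -0.66 for Ccl28. It lay between 0.53 and 0.92 for Cx3cl1 and between 0.63 and 1.20 for Cxcl16. In each of the 4 lines, both treated cultures lay on the same side of both untreated cultures for these 4 genes. The share of all tested genes that did so was not counted. The 4 genes were picked out by comparisons of these same cultures, so the statement describes them and is no further test. When the cultures of a line were summed, leaving 2 lines per group, none of the 4 passed in fl/fl organoids, although the log2 changes stayed close. Ccl28, Cx3cl1 and Ccl25 then had adjusted p-values of 0.0109, 0.0112 and 0.014, and Cxcl16 one of 0.0808. In ΔIEC organoids Ccl28 and Cx3cl1 still passed with summed cultures and Ccl25 (adjusted p = 0.042) and Cxcl16 (0.73, adjusted p = 0.156) did not.

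Whether the IL-22 response differed between genotypes was tested by the interaction. None of the 5 tested chemokine genes passed, none had an unadjusted p under 0.05, and the count was also 0 in DESeq2. Over all tested genes 0.00796% were called with a more positive and 0.00796% with a more negative change in ΔIEC organoids. The difference in log2 change, ΔIEC minus fl/fl, was 0.59 ± 0.49 for Ccl20, 0.21 ± 0.15 for Ccl25, -0.22 ± 0.16 for Ccl28, -0.12 ± 0.30 for Cxcl16 and 0.11 ± 0.17 for Cx3cl1 (SE). The SE of Ccl20 leaves room for a difference as large as the IL-22 changes of the other genes.

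The genotypes were compared next, without and with IL-22. These comparisons use the same cultures as the IL-22 comparisons. Among the 5 tested chemokine genes Cx3cl1 was the one that passed the threshold, and it was lower in ΔIEC organoids in both states. Cx3cl1 was 1 of 5 tested genes called lower in untreated organoids, where 5.98% of all tested genes were called lower and 3.78% higher. With IL-22 it was again the 1 called lower, beside 9.84% of all tested genes called lower and 9.92% higher. None of the 5 was called higher in either state.

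Untreated ΔIEC cultures held 24.4 to 30.4 CPM of Cx3cl1 and untreated fl/fl cultures 39.4 to 52.1 CPM, a log2 difference of -0.76 ± 0.13 (adjusted p = 0.000477). The groups did not overlap. With IL-22 the range was 38.3 to 59.1 CPM in ΔIEC and 72.6 to 81.3 CPM in fl/fl cultures, a log2 difference of -0.65 ± 0.11 (adjusted p = 0.000287). IL-22–treated ΔIEC cultures, at a mean of 48.6 ± 8.77 CPM (SD, n = 4), thus lay near untreated fl/fl cultures at 46.6 ± 6.4 CPM. The untreated difference did not pass without line 1293 (-0.56, adjusted p = 0.0273) or line 1290 (-0.68, adjusted p = 0.0133). With the cultures of a line summed neither difference passed, at adjusted p = 0.0381 untreated and 0.022 with IL-22. Paneth cell markers were also lower in ΔIEC organoids. They summed to a mean of 3840 CPM (3330 to 4360) against 7220 CPM (6020 to 8600) untreated and to 4500 CPM (4080 to 4940) against 8800 CPM (7450 to 10100) with IL-22, with 4 and 6 of 7 called lower. Goblet cell markers summed to 1550 against 2180 CPM untreated and 1050 against 1980 CPM with IL-22, with 3 and 4 of 7 called lower. Enteroendocrine markers summed to 291 against 468 CPM and 334 against 577 CPM, with 1 and 3 of 7 called lower. Stem cell markers summed to more, 996 against 495 CPM untreated and 402 against 247 CPM with IL-22, with 3 of 5 called higher in each state and 1 called lower with IL-22. Olfm4 held most of that difference (582 against 144 CPM untreated), and Lgr5 was lower, at 68.5 against 101 CPM untreated and 45.5 against 82.9 CPM with IL-22, where it was called (adjusted p = 0.00672). The part of these markers in the Cx3cl1 difference was not tested.

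Ccl25 was at 243 to 283 CPM in untreated ΔIEC and 300 to 379 CPM in untreated fl/fl cultures. These did not overlap, but the log2 difference of -0.36 ± 0.11 missed the threshold (adjusted p = 0.0223). It passed without line 1294 (-0.49, adjusted p = 0.00773) or line 1290 (-0.46, adjusted p = 0.00962). With IL-22 the ranges were 139 to 211 and 187 to 197 CPM and overlapped, with a log2 difference of -0.15. Ccl28 differed by -0.12 on the log2 scale untreated and by -0.34 with IL-22 (adjusted p = 0.0298). The second value passed without IL-22–treated fl/fl replicate 4, at -0.45 (adjusted p = 0.0044). Cxcl16 differed by 0.22 untreated and 0.10 with IL-22, and both pairs of groups overlapped.

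Ccl20 had the largest difference in the IL-22–treated state among the 5 tested chemokine genes. Its ΔIEC cultures held 6.32 to 11.7 CPM and its fl/fl cultures 1.49 to 6.31 CPM, ranges that all but touch. The log2 difference of 1.21 ± 0.36 missed the threshold (adjusted p = 0.0141) and passed in DESeq2 (1.20, adjusted p = 0.00637). It also passed without untreated fl/fl replicate 4 (adjusted p = 0.00792), IL-22–treated fl/fl replicate 1 (0.00918) or IL-22–treated ΔIEC replicate 3 (0.00971), and was 1.91 without line 1293 (adjusted p = 0.00297). It was not called in 13 of the 16 fits without 1 culture. Over the fits without 1 line it ranged from 0.65 to 1.91, and over all alternatives its adjusted p reached 0.163. Untreated, the difference was 0.62 ± 0.33 (adjusted p = 0.195) and the groups overlapped. Of the 6 markers of M cells, which overlie lymphoid follicles, Gp2 and Sox8 had 0 reads in every culture. Of the 3 tested, 1 was called higher and 0 lower in ΔIEC organoids in each state. Of all tested genes, 3.78% were called higher untreated and 9.92% with IL-22. The 6 markers summed to a mean of 60.7 against 55.1 CPM untreated and 63.4 against 53.8 CPM with IL-22, in ΔIEC against fl/fl organoids. The part of these markers in the Ccl20 difference was not tested.

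**Figure D3:**
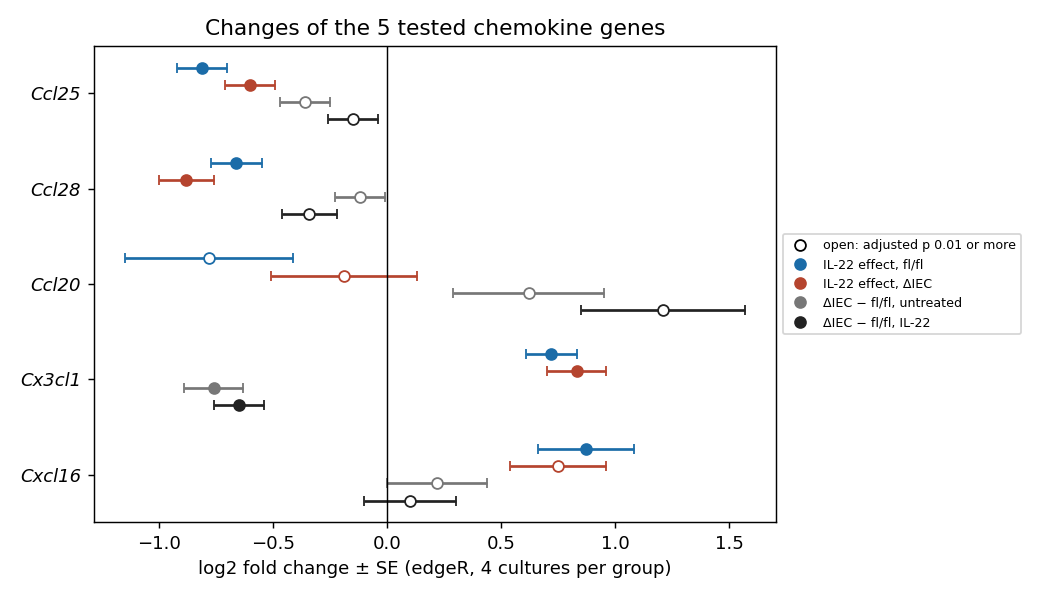
Points give the log2 fold change and bars its SE from edgeR for the 5 tested chemokine genes in 4 comparisons, 4 cultures per group, and filled points passed an adjusted p under 0.01. Blue and red points give the IL-22 effect in fl/fl and ΔIEC, gray and black points the genotype difference without and with IL-22, and Cx3cl1 is the gene filled in all 4 comparisons.

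Cxcl1 and Cxcl2, the neutrophil-attracting genes, were at the limit of detection. They lie on chromosome 5, Cxcl1 from 90891241 to 90893115 and Cxcl2 from 90903871 to 90905938. Groups in which every culture had at most 3 reads were treated as being at a floor. Cxcl2 had 0 reads in all 4 untreated fl/fl cultures. It had 1, 0, 0 and 1 reads in IL-22–treated fl/fl and 0, 0, 0 and 1 reads in untreated ΔIEC cultures. In IL-22–treated ΔIEC cultures it had 5, 8, 5 and 7 reads, which was 2.02, 2.26, 1.5 and 2.02 CPM. All 4 of these cultures, from both lines, were above all 12 others. Taking 3 reads per culture as the floor, the mean CPM of Cxcl2 in these cultures was 2.01 times the mean floor of untreated ΔIEC cultures. It was 2.34 times the mean floor of IL-22–treated fl/fl cultures. The highest floors in those groups were 1.24 and 1.18 CPM, beside 1.5 CPM in the lowest of the 4 cultures. These ratios leave out the counting error of the 5 to 8 reads. The gene had been left out of the main test by the filter. In the fit with no filter it passed in both comparisons (adjusted p = 0.000343 and 0.000507), whereas its interaction did not (adjusted p = 1). Adjusted p-values of the fit with no filter can lie far from those of the main fit. For Cxcl16 with IL-22 in ΔIEC organoids the value was 8.54e-10 against 0.012. For Il22ra1 with IL-22 in fl/fl organoids it was 0.013 against 0.00297.

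Cxcl1 had 1, 0, 0 and 2 reads in untreated fl/fl and 3, 5, 5 and 0 reads in IL-22–treated fl/fl cultures. In ΔIEC organoids it had 1, 2, 2 and 2 reads untreated and 0, 1, 7 and 7 reads with IL-22. The 2 higher cultures are those of line 1292, and line 1290 did not move up. No comparison of Cxcl1 passed in the fit with no filter, where the adjusted p-values were 0.221 and 0.461 for IL-22 in fl/fl and ΔIEC organoids. No difference in Cxcl1 between groups was detected.

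The other genes of the chemokine system were counted from lists. Of 28 other chemokine ligands, 22 had at most 3 reads in every culture, 14 of these had 0, and 2 were tested. These were Ccl6 and Ccl9, CC chemokines of the mouse. Ccl9 rose from 18.4 to 30.3 CPM with IL-22 in ΔIEC organoids (log2 change 0.75, adjusted p = 4e-04) and was at 19.5 and 25.6 CPM in fl/fl (0.40, adjusted p = 0.0326). The call in ΔIEC organoids was lost without line 1292 (0.68, adjusted p = 0.016) and with summed cultures (0.74, adjusted p = 0.0306). Ccl6 was not called, with means of 50.8 and 64.4 CPM in fl/fl and 33.8 and 32.4 CPM in ΔIEC organoids. Among the untested ligands, Cxcl10 and Cxcl5 are named after their values were seen. Cxcl10, an interferon-inducible chemokine, had 7 to 18 reads in IL-22–treated ΔIEC cultures, 3 to 7 in untreated ΔIEC, 2 to 5 in IL-22–treated fl/fl and 0 to 4 in untreated fl/fl cultures. Cxcl5, a further CXCR2 ligand, had 2 to 5 reads in IL-22–treated ΔIEC cultures. It had 0 to 1 reads in each untreated group and 0 to 2 in IL-22–treated fl/fl cultures. Of the other untested ligands, Cxcl3, Cxcl9 and Cxcl11 had at most 3 reads in every culture. In ΔIEC organoids Cxcl9 averaged 0.42 and 0.173 CPM and Cxcl11 0.429 and 0.316 CPM without and with IL-22. Cxcl3 averaged 0.322 CPM in IL-22–treated fl/fl and 0.295 CPM in IL-22–treated ΔIEC cultures.

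Of 22 chemokine receptors, 14 had at most 3 reads everywhere, 8 of these had 0, and 1 was tested. This was Ackr4, a scavenging receptor that takes up chemokines including CCL25. It was at 16.5 and 9.08 CPM without and with IL-22 in fl/fl and at 17.8 and 10.4 CPM in ΔIEC organoids, log2 changes of -0.83 and -0.82 that missed the threshold (adjusted p = 0.0162 and 0.0206). The signalling receptors for the 7 ligands were near 0. Ccr6 and Ccr3 had 0 reads in every culture, Ccr10 and Cxcr6 at most 2, Cx3cr1 at most 3 and Ccr9 and Cxcr2 at most 5.

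Genes for shedding and binding of membrane-bound chemokines numbered 6 tested of 7. Adam10, a protease that sheds CX3CL1 and CXCL16, rose from 206 to 282 CPM in fl/fl (log2 change 0.45, adjusted p = 0.000282) and from 199 to 265 CPM in ΔIEC organoids (0.41, adjusted p = 0.00075). The first call was lost without line 1294 (adjusted p = 0.0104) and the second without line 1290 (0.0247) or 1292 (0.0316). Its relative Adam17 was not called, at 55.5 and 52.1 CPM in fl/fl and 53.8 and 58.6 CPM in ΔIEC organoids. Rhbdf2, a cofactor of ADAM17, rose with IL-22 in ΔIEC organoids from 28.4 to 43.4 CPM (0.63, adjusted p = 0.000306), a call lost without line 1292 (0.60, adjusted p = 0.0218). In fl/fl organoids it went from 40.3 to 50.8 CPM (0.33, adjusted p = 0.0208). It was lower in untreated ΔIEC than in untreated fl/fl organoids (-0.52, adjusted p = 0.00364), a call lost when any of 4 of the 16 cultures was left out, with summed cultures (0.0647), in limma-voom with the correlation within lines (0.0162), and without line 1293 (0.0977), 1290 (0.0524) or 1292 (0.0145). With summed cultures the IL-22 calls of Adam10 (adjusted p = 0.0287 in fl/fl and 0.0459 in ΔIEC) and Rhbdf2 (0.0125) were also lost. No gene of this list was called lower with IL-22 in either genotype. Lower values that missed the threshold included those of Rhbdf1 in ΔIEC (26.8 to 16.5 CPM, log2 change -0.64, adjusted p = 0.0196) and of Sdc4 (-0.25 and -0.29, adjusted p = 0.0443 and 0.0299, in fl/fl and ΔIEC).

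Many listed genes of cytokine and NF-κB signalling, inhibitors among them, were called higher with IL-22. Of the 23 tested, 13 were called higher and 0 lower in fl/fl organoids, with a median log2 change of 0.63. Of all tested genes, 10.6% were called higher and 10.2% lower there. In ΔIEC organoids 13 were called higher and 0 lower, with a median of 0.52, beside 9.83% and 7.65% of all tested genes. The largest rise by the naming rule was that of Il33, which encodes an alarmin cytokine. It went from 44 to 166 CPM in fl/fl (1.90, adjusted p = 1.3e-06) and from 23.3 to 120 CPM in ΔIEC organoids (2.39, adjusted p = 1.95e-07). Nfkbia and Tnfaip3 encode inhibitors of NF-κB signalling. Nfkbia rose by 1.12 (adjusted p = 6.74e-06) and 0.86 (0.000121), and Tnfaip3 by 1.10 (5.92e-06) and 1.26 (1.27e-06), in fl/fl and ΔIEC organoids. Nfkbiz, a nuclear cofactor of NF-κB, rose by 1.30 in fl/fl (adjusted p = 5.88e-06) and 1.21 in ΔIEC organoids (2.28e-05). The adaptor Myd88 rose by 0.71 and 1.01 (adjusted p = 0.000386 and 3.47e-06) and the TNF receptor gene Tnfrsf1a by 0.63 and 0.70 (3.6e-05 and 1.15e-05). With summed cultures the calls of Nfkbiz in fl/fl (1.28, adjusted p = 0.0106) and Tnfrsf1a in ΔIEC organoids (0.70, adjusted p = 0.0107) were lost. Tnf, named after its values were seen, rose from 4.46 to 13.2 CPM in fl/fl and from 7.68 to 20.8 CPM in ΔIEC organoids.

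**Figure D4:**
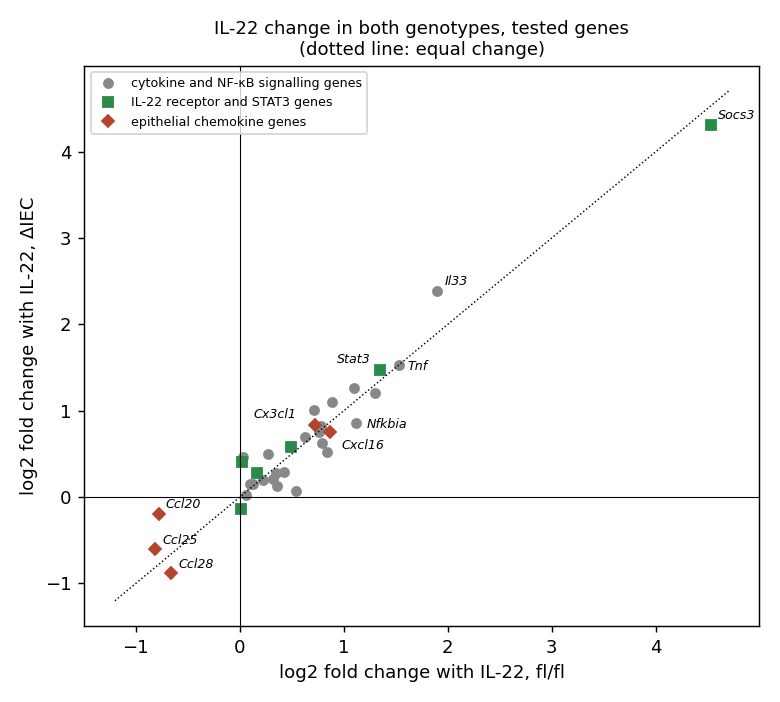
Each point is 1 tested gene, placed by its log2 fold change with IL-22 in fl/fl (horizontal) and in ΔIEC organoids (vertical), and the dotted line marks equal change. Genes of cytokine and NF-κB signalling (gray circles) and of the IL-22 receptor and STAT3 pathway (green squares) lie mostly above 0 on both axes with Socs3 farthest out at 4.53 and 4.31, and the 5 chemokine genes (red diamonds) lie on both sides of 0.

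In untreated organoids the same list held 3 genes called higher and 1 called lower in ΔIEC than in fl/fl of 23 tested. Of all tested genes, 3.78% were called higher and 5.98% lower in that comparison. Nfkb1, an NF-κB subunit gene, was higher by 0.38 (adjusted p = 0.00164), Tnfrsf1b by 0.58 (0.00472) and Myd88 by 0.54 (0.00969), and Il33 was lower by a log2 difference of -0.95 (0.00995). The calls for Myd88 and Il33 were each lost when any of 12 of the 16 cultures was left out, and that for Tnfrsf1b when any of 4 was. In limma-voom with the correlation within lines these 3 were not called (adjusted p = 0.067, 0.0395 and 0.0291 for Myd88, Il33 and Tnfrsf1b), and with summed cultures none of the 4 was (0.0749 for Nfkb1 to 0.144 for Il33). The call for Nfkb1 was lost without line 1293 (adjusted p = 0.0279), 1290 (0.0216) or 1292 (0.0181). The windows with a κB match were those of Cxcl1, Cxcl2 and Ccl20, the 3 chemokine genes with the fewest reads. Ccl20, the tested one, was not called with IL-22 in either genotype. Cxcl16 had no window to search, and a link between a match and the level or response of a gene was not tested. The mean CPM of Cxcl2 with IL-22 in ΔIEC organoids was 2.01 times the mean floor of untreated ΔIEC cultures, as given above. Of the IL-22 receptor and STAT3 list, 3 of 6 were called higher and 0 lower in each genotype. The shares of all tested genes called higher were 10.6% in fl/fl and 9.83% in ΔIEC organoids. Socs3, a feedback inhibitor induced by STAT3, rose by 4.53 (adjusted p = 1.15e-13) and 4.31 (4.57e-13), Stat3 by 1.35 (2.66e-09) and 1.47 (8.48e-10), and the receptor gene Il22ra1 by 0.49 (0.00297) and 0.58 (0.000715). The call for Il22ra1 in fl/fl organoids was lost without IL-22–treated fl/fl replicate 4, at 0.45 (adjusted p = 0.0115), and without either fl/fl line (0.031 and 0.0956). In ΔIEC organoids it was lost without line 1290 (0.0125) or 1292 (0.0472). Summed cultures lost both calls (0.0505 and 0.0306).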

How the data were processed

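RNA of 16 organoid cultures was sequenced as paired-end reads. The authors removed adapters with cutadapt, mapped the reads with TopHat2 on GRCm38 and ran HTSeq, whose whole-number counts they deposited without normalization. The kit is named differently in the labels and in the methods, and the strand setting of the counting is not given in the sources used here. How reads of overlapping genes were counted is thus not known. Lines for reads not counted on a gene (61.7% to 63.7% of each culture) were left out of library sizes. Of the 49585 genes, 49326 (99.5%) matched a GENCODE annotation of GRCm38 by identifier without version, which gave symbols, positions and lengths. Promoter windows are from RefSeq.

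The 4 groups were taken from the labels. Tests used edgeR 4.0.16 in R 4.3.3: filterByExpr by group, TMM, and a quasi-likelihood fit with 1 mean per group over 12559 genes (common biological coefficient of variation 0.115), two-sided, with Benjamini-Hochberg adjustment per comparison and a threshold of 0.01. SE is the absolute log2 change divided by the square root of F. CPM used TMM-scaled library sizes, log2 CPM a prior count of 2, and the floor was 3 counts, which covers counting error only. Depth was 2135000 to 5574860 counts, and cultures of a line and treatment differed by more than sampling noise (chi-square per degree of freedom 1.38 to 8.01). The line numbers pair treated and untreated cultures: deviations from group means correlated at 0.26 to 0.44 (fl/fl) and 0.06 to 0.32 (ΔIEC) within a line and at -0.43 to -0.22 and -0.35 to -0.08 between lines. The steps were tested on simulated counts, drawn independently for each culture and with no difference between lines. Such counts cannot show how the p-values hold with 2 lines per genotype.

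The members, lists and tests were chosen with earlier results of these data known. Named genes are the members, Atg16l1, for each other list at most 4 genes with the smallest p past the threshold in each IL-22 comparison and the untreated comparison, and the 3 genes most correlated with each tested member. Alternatives were DESeq2 1.42.0, RLE normalization, all genes with a count, genes whose every culture held at least 10 counts, an adjusted p under 0.05, the line as a replicate block, summed cultures of a line, limma-voom 3.58.1 with correlation within lines, only the groups compared, and each culture and line left out.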

Additional observations from a re-analysis of the deposited data

Results flagged for a closer look

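The 7 chemokine genes gave 27 sets of 4 cultures with any variation. Each set was checked for a culture that stood far from the other cultures of its group. For continuous, normally distributed values, chance meets this check in about 1 in 20 groups. One was met: Cxcl2 was at 0.414 CPM in untreated ΔIEC replicate 4 and at 0 in the other 3 cultures of that group. The value is a single read, and a single read beside 3 cultures at 0 always meets the check. The rate of 1 in 20 does not hold for such a set.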

How the results depend on the processing

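The IL-22 count in fl/fl organoids was 4 chemokine genes and ranged from 3 to 4 when any 1 culture was left out. It was 0 with the cultures of a line summed, which leaves 2 lines per group, and 2 without line 1294. The count in ΔIEC organoids was 3, ranged from 3 to 4 with 1 culture left out, and was 5 with no filter on low counts, where Cxcl2 and Cxcl16 were added, and 2 with summed cultures or without line 1292. The untreated genotype count of 1 became 2 with no filter, 2 at an adjusted p under 0.05, 0 with summed cultures, 0 without line 1293 and 2 without line 1294, and stayed 1 with any 1 culture left out. The genotype count with IL-22 was 1 and became 2 in DESeq2, 3 with no filter, 3 at an adjusted p under 0.05, 0 with summed cultures and 2 without line 1293, with a range of 1 to 2 when 1 culture was left out. Except where summing or leaving out reduced the samples, the cause was not tested.

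The interaction count was 0 under every alternative run. With the line as a replicate block the counts were 4 in fl/fl, 4 in ΔIEC organoids and 0 for the interaction, and the call it changed among the chemokine genes was that of Cxcl16 in ΔIEC organoids. The lines are nested in genotype, so the genotype comparisons have no such fit.

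Reversed directions were limited to values that were not called. Ccl20 with IL-22 in ΔIEC organoids became 0.35 without line 1292. The interaction of Cxcl16 ranged from -0.31 without untreated ΔIEC replicate 1 to 0.06, being 0.05 without untreated fl/fl replicate 4, 0.06 without untreated ΔIEC replicate 3 and, without line 1294, 0.11. The interaction of Cx3cl1 ranged from 0 without IL-22–treated ΔIEC replicate 4 to 0.19 without IL-22–treated ΔIEC replicate 1, and was -0.14 without line 1293. The untreated genotype difference of Cxcl16 became -0.10 without line 1294 and -0.14 without line 1292. With IL-22, the genotype difference became 0.06 for Ccl25 and -0.20 for Cxcl16 without line 1292. Over the named genes and alternatives, 1234 of 1363 values kept their direction and side of the threshold, 95 lost a call, 24 gained one and 10 reversed. The depth limits Cxcl1 and Cxcl2, which had at most 8 reads in any culture.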
